A study of Mus musculus with 5 samples.

Results

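Interferon-stimulated effector genes are the genes that cells switch on behind interferon signalling to block viruses and other intruders. A list of 48 such genes was matched by symbol to the deposited expression table, which held 46 of them among 23337 genes. Helz2 and Ifi27 were not among its symbols and were skipped. The data are messenger RNA of mouse embryonic fibroblasts made immortal with the SV40 large T antigen, all of strain 129Sv and kept under normal conditions with no interferon or virus named. Of the 5 libraries, 3 are labelled wild type for SIRT3 (WT) and 2 are labelled SIRT3 -/- (KO), a genotype lacking a deacetylase of mitochondria. Whether the libraries of a genotype are separate cultures, lines or clones could not be read from the labels. The p-values therefore reflect only how far these 5 libraries scatter, and that scatter may be technical.

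Interferons bind receptors at the cell surface, whose JAK kinases phosphorylate STAT proteins. Together with IRF9, STAT proteins form a factor that binds a GAAA-rich promoter sequence, the interferon-stimulated response element, while STAT dimers bind a palindrome called the gamma-activated sequence. Fibroblasts keep a low tonic level of many effector genes without infection. The products act on viral RNA, on translation, on membranes that viruses cross, and on vacuoles that hold parasites or bacteria.

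Under the label KO, most of the effector genes were lower. Of the 46 genes, 41 had every WT library above both KO libraries, 2 had both KO libraries above every WT library, and 3 overlapped. A test was made for the 41 genes with a normalized read count (reads divided by a size factor per library) of 10 or more in at least 2 libraries. In it 37 were lower, 2 were higher and 2 were not called at an adjusted p under 0.05 (limma, Benjamini-Hochberg over all genes tested). Of all 13062 genes tested, 65.3% were called in either direction, 32.6% lower and 32.6% higher. Groups did not overlap for 75.4% of them, with WT above KO for 37.6% and KO above WT for 37.8%. Differences of this kind were thus widespread, and the size of the effector genes' differences has to be read beside them. Among the 41 tested, 26 were lower by at least 2-fold, against 6.41% of all genes tested, and 13 by at least 4-fold, against 2.22%. Their median log2 fold change, KO minus WT on the log2(normalized read count + 1) scale, was -1.65, and that of all genes tested was -0.0023. The filter favours genes that fell: 8 of the 41 reached 10 in fewer than 2 KO libraries, and 4 of these in neither. Where both KO libraries reached 10, 29 of 33 were lower.

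**Figure D1:**
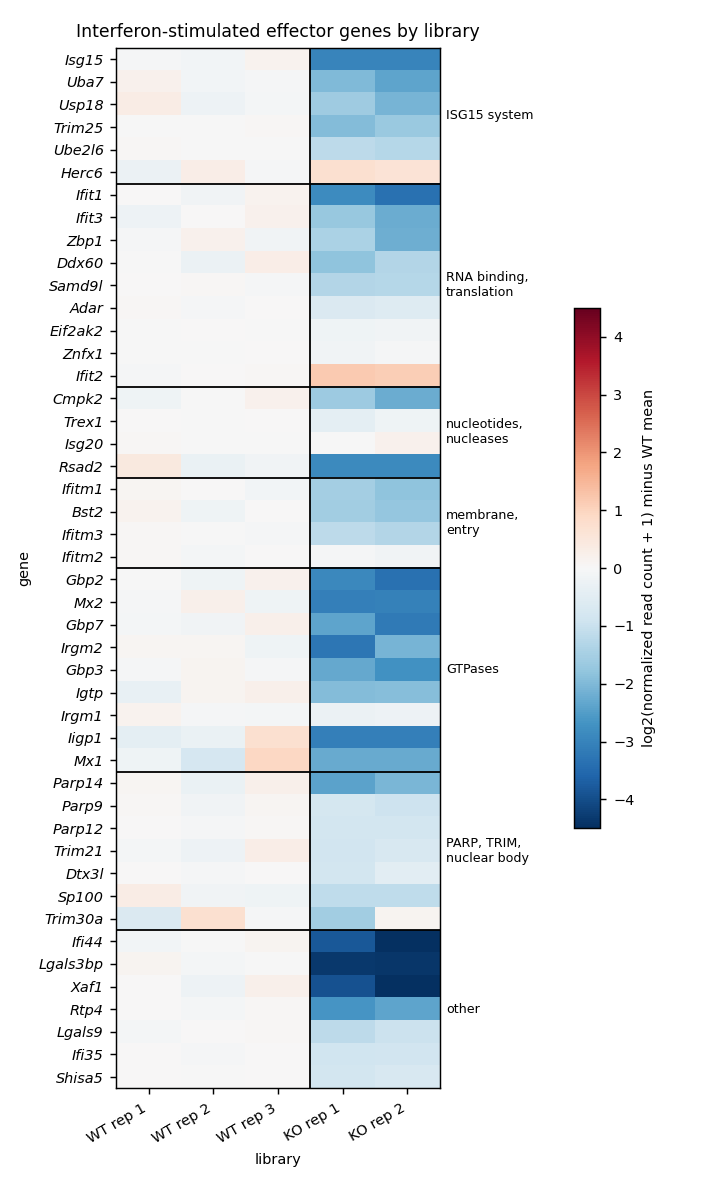
Heat map of the 46 effector genes (rows, by role) in the 5 libraries (columns), with colour for log2(normalized read count + 1) minus the WT mean of that gene. Both KO columns are blue for most genes, Ifit2 and Herc6 are red there, and Znfx1, Isg20, Ifitm2, Irgm1 and Eif2ak2 are near white.

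The members' level was alike among libraries of a genotype. The median over the 41 tested genes of each library's log2 difference from the WT mean lay at 0.013, -0.034 and 0.016 for the WT libraries. For the KO libraries it lay at -1.53 and -1.67. The libraries held between 33473103 and 41758681 reads. The targeted gene Sirt3 had reads in every library, at 170, 149 and 118 normalized read counts in WT and at 200.4 and 217 in KO. It was thus higher under the label KO (log2 fold change 0.53, adjusted p = 0.0044, limma), a call that ended with DESeq2 on the reads of 4 libraries (adjusted p = 0.0631). The authors' deposited DESeq2 comparison gives an adjusted p of 0.0190 for Sirt3. A total over the whole gene cannot show whether a deleted part is missing and so does not check the label. All directions are given between libraries as labelled. Of 10 fibroblast markers the summed RPKM (reads scaled by gene length and library size) was 4346 to 4484 in WT and 3847 to 4039 in KO, more of it Vim than any other gene. Among them Pdgfra, a receptor often used to mark fibroblasts, was at 80.4 RPKM in WT and 5.02 in KO, and Col3a1 and Dcn, for a collagen and a matrix proteoglycan, fell by 2.25 and 2.35 on the log2 scale. Vim and Pdgfrb also fell, Col1a1 and Col1a2 rose, Thy1 and Fn1 were not called, and Lum, near 0 in all libraries, was not tested. Of 8 macrophage markers the sum was 3.90 to 4.17 in WT and 3.99 to 4.02 in KO, nearly all of it Cd14, which was not called. Csf1r and Mrc1 were 4.01-fold and 2.56-fold higher in KO from low levels (limma, adjusted p = 7.5e-04 and 0.0245), Fcgr1 was not called, and Ptprc, Adgre1, Lyz2 and Itgam did not reach the filter. Of 7 markers of lymphocytes and dendritic cells, Cd3e, Ms4a1, Siglech and Nkg7 were at 0 in all libraries, and the sum was 0.141 to 0.223 in WT and 0.121 to 0.202 in KO. Endothelial markers (6 genes) summed to 0.162 to 0.231 in WT and 0.412 to 0.472 in KO, of which Kdr and Vwf were called higher in KO and Cdh5 and Tek were not called. Epithelial markers (6 genes) summed to 0.167 to 0.196 in WT and 0.437 to 0.478 in KO, with Epcam called higher, Krt5 at 0 in all and the others not tested. The part of these marker changes in the results was not tested. In bulk RNA, fewer cells that express a gene and less RNA per cell cannot be told apart.

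Promoter sequences show which of the genes carry the letters that these factors bind. Windows from 250 bases before to 50 bases after each RefSeq start (GRCm38.p6, the assembly that mm10 names) were at hand for 38 of the 46 genes, in 52 windows, and not for Iigp1, Mx1, Mx2, Parp14, Parp9, Rtp4, Usp18 and Zbp1. The core of the response element, which is GAAA, any 2 bases and GAAA again, was found on either strand in 20 of the 52 windows (38.5%), and in 3.44% of all 32851 windows. By gene it was in at least 1 window of 19 of the 38, and of 3.99% of all 27025 genes. The palindrome TTCNNNGAA was in 11 of the 38 genes (28.9%), and in 9.55% of all genes. The motifs can share letters, as TTCNNNGAA ends in GAA. A match is a string of letters and not a measured binding site. The sequences below are of genes whose responses are compared further on, written 5′ to 3′ on the gene's strand in lower case, with matches to either motif, the N positions included, in capitals.
Ifit1, chr19:34640639-34640888, plus strand, bases -250 to -1: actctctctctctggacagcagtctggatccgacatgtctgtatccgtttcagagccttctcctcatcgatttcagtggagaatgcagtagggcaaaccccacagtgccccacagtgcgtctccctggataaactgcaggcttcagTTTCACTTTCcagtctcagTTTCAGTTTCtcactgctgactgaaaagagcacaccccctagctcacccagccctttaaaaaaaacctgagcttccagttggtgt
Ifit2, chr19:34550444-34550693, plus strand, bases -250 to -1: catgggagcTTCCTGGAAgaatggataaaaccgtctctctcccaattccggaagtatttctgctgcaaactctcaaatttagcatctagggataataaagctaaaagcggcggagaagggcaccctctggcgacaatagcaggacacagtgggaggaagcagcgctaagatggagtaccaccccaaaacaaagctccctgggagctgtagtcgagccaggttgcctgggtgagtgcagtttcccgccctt
Ifit3, chr19:34583359-34583419, plus strand, bases -170 to -110: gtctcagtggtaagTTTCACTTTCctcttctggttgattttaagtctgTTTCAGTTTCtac
Isg15, chr4:156200859-156200908, minus strand, bases -90 to -41: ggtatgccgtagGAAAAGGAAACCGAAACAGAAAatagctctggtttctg
Ifitm2, chr7:140955982-140956031, minus strand, bases -70 to -21: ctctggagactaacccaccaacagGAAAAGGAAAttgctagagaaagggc
Gbp2, chr3:142620583-142620632, plus strand, bases -80 to -31: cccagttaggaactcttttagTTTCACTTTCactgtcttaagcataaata
Igtp, chr11:58199496-58199545, plus strand, bases -60 to -11: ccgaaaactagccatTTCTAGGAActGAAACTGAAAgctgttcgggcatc
Irgm2, chr11:58214887-58214936, plus strand, bases -90 to -41: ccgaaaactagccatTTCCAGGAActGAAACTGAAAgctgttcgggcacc
Irgm1, chr11:48871421-48871465, minus strand, bases -45 to -1: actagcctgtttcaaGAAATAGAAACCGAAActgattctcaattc

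Ifit1 and Ifit3 each held 2 matches to the response element core before the start, on the opposite strand, where GAAA reads TTTC. Ifit2 held none in either of its 2 windows, and a TTCNNNGAA match at bases -241 to -233. The windows of Ifit2 and Ifit3 lie mostly or wholly inside the annotated genes, whose lowest coordinates are 34550550 and 34583119. Sequence before those coordinates was searched only in small part for Ifit2 and not for Ifit3. Isg15 had 3 overlapping matches between bases -78 and -57. The stretches of Igtp and Irgm2 shared 48 of 50 bases, with both motifs at the same spacing. Of the genes with a match to the response element core, 17 of 17 tested were lower in KO, with a median log2 fold change of -1.65 and a range of -3.12 to -0.11. Of those without it, 14 of 18 tested were lower and 2 were higher, with a median of -1.05 and a range of -4.46 to 1.14. Among all genes tested, 32.6% were lower and 32.6% higher. Those without the match included Ifi44, Lgals3bp and Xaf1, the 3 genes with the lowest log2 fold changes. The difference between the sets was not tested.

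The ISG15 system fell in 5 of its 6 genes, and its ligase gene Herc6 rose. Beside this and the later counts by role, 32.6% of all genes tested were lower and 32.6% higher. Isg15, a ubiquitin-like protein attached to newly made proteins, is on chromosome 4 from 156199424 to 156200818. It was at 190.0, 183 and 223 normalized read counts in the WT libraries and at 24.2 and 24.5 in the KO libraries. The groups lay far apart, with means of 199 ± 21.3 (SD, n = 3) and 24.3 ± 0.168 (SD, n = 2), an 8.16-fold higher level in WT. The limma estimate was -2.97 ± 0.182 (log2 fold change ± SE, adjusted p = 4.9e-12). Uba7, its activating enzyme, and Ube2l6, its conjugating enzyme, were 4.69-fold and 2.36-fold higher in WT, and Usp18, the protease that removes ISG15 and restrains the interferon receptor, was 3.74-fold higher. Trim25, a ubiquitin ligase that acts with the RNA sensor RIG-I, was at 3474, 3481 and 3643 in WT and at 905 and 1109.8 in KO. The WT mean was 3.51-fold the KO mean (log2 fold change -1.82, limma adjusted p = 2.6e-16). Herc6, which serves as the main ISG15 ligase in mice, went the other way. Its values were 54.8, 80.1 and 63.8 in WT and 109 and 100.1 in KO, without overlap, a log2 fold change of 0.67 with a 95% interval of 0.25 to 1.08 (limma, adjusted p = 0.0062).

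**Figure D2:**
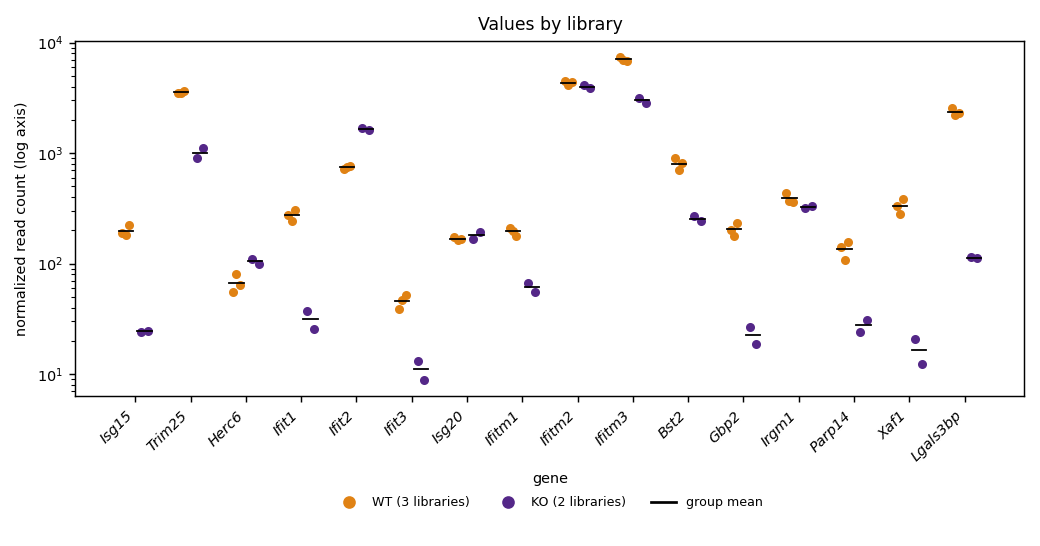
Normalized read counts (log axis) of 16 effector genes in each library, with WT points in orange, KO points in purple and the group mean as a bar. Ifit2 and Herc6 are higher in KO, Isg20 and Ifitm2 overlap, and the other 12 have all WT points above the KO points.

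Among genes for RNA binding and the control of translation, 7 of 9 were lower and Ifit2 was higher. Ifit1, which binds RNA without the cap marks of the host, lies on chromosome 19 from 34640889 to 34650009. It was at 275, 245 and 305 normalized read counts in WT and at 37.4 and 25.6 in KO, and the WT mean was 8.73-fold the KO mean. The log2 fold change was -3.11 ± 0.178 (SE, limma adjusted p = 1.6e-12). Ifit3, which binds and stabilises the Ifit1 protein, was at 38.9, 46.5 and 51.8 in WT and at 13.2 and 8.90 in KO (log2 fold change -1.97, limma adjusted p = 1.3e-05). Ifit2 belongs to the same family of tetratricopeptide proteins and starts 90.3 kb from Ifit1. It was at 715, 754 and 768 in WT and at 1674 and 1616 in KO, so that every KO value exceeded every WT value. WT averaged 746 ± 27.3 (SD, n = 3) and KO 1645 ± 41.1 (SD, n = 2), which is 2.21-fold. The limma estimate was 1.14 ± 0.0616 (log2 fold change ± SE, adjusted p = 5.8e-13). That estimate stayed between 1.11 and 1.17 in every alternative run. The log2 ratio of Ifit1 to Ifit2, from RPKM + 0.1, was -0.78, -1.01 and -0.73 in WT and -4.58 and -4.94 in KO.

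Apart from the Ifit genes, the genes of this role had smaller estimated falls than Ifit1, and Znfx1 was not called. Adar, the enzyme that deaminates adenosine in double-stranded RNA, had the highest WT level per length of the role and was at 3585, 3315 and 3498 normalized read counts in WT and at 2198 and 2325 in KO (log2 fold change -0.62, limma adjusted p = 1.9e-10). Samd9l, a restriction factor, was 2.47-fold higher in WT. Eif2ak2, which encodes the kinase PKR that halts translation, was 1.13-fold higher in WT, with a log2 fold change of -0.18 (limma, adjusted p = 0.0045). The nucleic acid sensor gene Zbp1 and the helicase gene Ddx60 fell from low levels, with log2 fold changes of -1.81 and -1.56. Zbp1 had 15, 16 and 13 reads in WT and 4 and 2 in KO, and Ddx60 had 20, 15 and 24 and then 4 and 6. DESeq2 on the reads of 4 libraries did not call Eif2ak2, Zbp1 or Ddx60 (adjusted p = 0.0740, 0.153 and 0.0739). For these genes the authors' deposited DESeq2 comparison gives adjusted p-values of 0.0147, 0.0422 and 0.0362. Znfx1, a helicase-like RNA sensor, was at 1313, 1307 and 1326 in WT and 1192 and 1272 in KO. Its WT values lay above its KO values, and the interval of its log2 fold change was -0.21 to 0.02 (limma, adjusted p = 0.143).

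**Figure D3:**
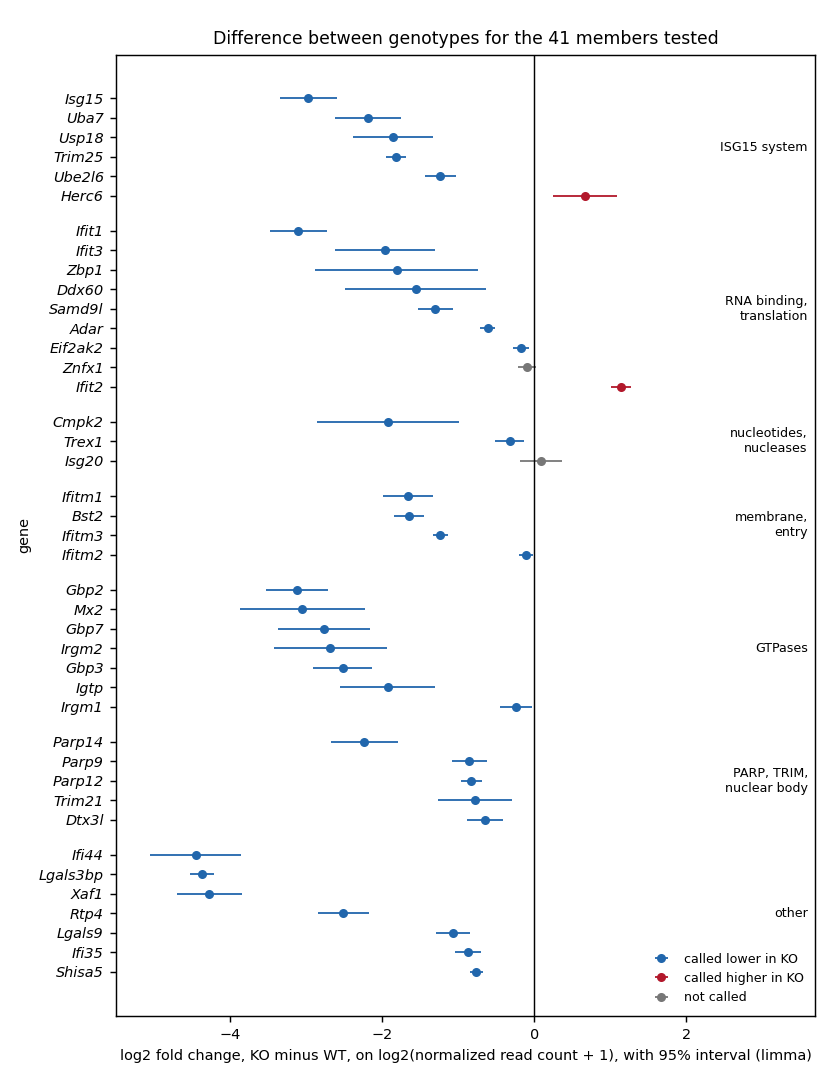
Log2 fold change, KO minus WT, with its 95% interval (limma) for the 41 effector genes tested, grouped by role, in blue where called lower, red where called higher and grey where not called. Ifi44, Lgals3bp and Xaf1 lie below -4, and Ifit2 at 1.14 is farthest to the right.

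Genes that act on nucleotides and nucleic acids were split between falls and a near-constant member. Cmpk2, a nucleotide kinase of mitochondria, had 19, 19 and 24 reads in WT and 5 and 3 in KO (log2 fold change -1.92, limma adjusted p = 8.1e-04). In no KO library did Cmpk2 reach 10 normalized read counts, so it passed the filter through WT alone, which favours falls. Rsad2, whose product viperin makes a chain-terminating nucleotide and whose gene starts near Cmpk2 on chromosome 12, had 10, 5 and 6 reads in WT and 0 in both KO libraries. Against a floor of 3 reads over the KO libraries together, it was at least 3.88-fold higher in WT. It was not tested because no library reached 10 normalized read counts (8.84, 4.95 and 5.55 in WT), and the authors' deposited table gives an adjusted p of 0.0432. Trex1, the exonuclease that clears cytosolic DNA, was at 514, 499 and 514 normalized read counts in WT and at 372 and 443 in KO (log2 fold change -0.33, limma adjusted p = 0.0035). Without KO replicate 1 the Trex1 call ended (-0.20, limma adjusted p = 0.0785). Isg20, an exonuclease that acts on RNA, overlapped between the groups, at 175, 164 and 166 in WT and 167 and 192 in KO. Its log2 fold change was 0.093 with an interval of -0.18 to 0.37 (limma, adjusted p = 0.555), which leaves out a fall as large as those of the ISG15 genes.

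At the membrane, the restriction factor genes Ifitm1, Ifitm3 and Bst2 fell, while Ifitm2 hardly differed. Ifitm proteins sit in endosomal and plasma membranes and block fusion of viral envelopes. Ifitm3 was at 7417, 6987 and 6870 normalized read counts in WT and at 3158 and 2859 in KO, with means of 7091 ± 288 (SD, n = 3) and 3009 ± 212 (SD, n = 2). WT was 2.36-fold higher (log2 fold change -1.24, interval -1.33 to -1.14, limma adjusted p = 9.8e-16). Ifitm1 was at 210.4, 199 and 179 in WT and at 67.2 and 55.6 in KO, and thus 3.19-fold higher in WT. Bst2, which encodes tetherin, a protein that ties budding virions to the cell, was at 896, 707 and 809 in WT and at 268 and 241 in KO (log2 fold change -1.65, limma adjusted p = 1.9e-12). Ifitm2 overlapped between the groups, at 4473, 4096 and 4353 in WT and 4148 and 3844 in KO. Its log2 fold change was -0.11, with an interval that reached from -0.20 to -0.01 (limma, adjusted p = 0.0454). That call ended without WT replicate 1 (-0.080, limma adjusted p = 0.207), WT replicate 3 (-0.10, 0.111) or KO replicate 2 (-0.053, 0.345), and the authors' deposited table gives 0.0806. The log2 ratio of Ifitm3 to Ifitm2, from RPKM + 0.1, was 0.68, 0.72 and 0.61 in WT and -0.44 and -0.47 in KO. Ifitm3 was thus the more abundant per length in every WT library and Ifitm2 in both KO libraries. Near-identical family members, here and among the Ifit, Gbp and Irgm genes, may share reads where the counting could split them.

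The dynamin-like and immunity-related GTPases, which coat viral capsids or the vacuoles of parasites, fell in all 7 genes tested, with a median log2 fold change of -2.68. Mx2, Gbp7 and Irgm2 did not reach 10 normalized read counts in both KO libraries and needed WT libraries to pass the filter, which favours falls. The median is the value of Irgm2. Gbp2, a guanylate-binding protein gene on chromosome 3 from 142620663 to 142638008, was at 202, 178 and 231 normalized read counts in WT and at 26.4 and 18.9 in KO. Means of 204 ± 26.7 (SD, n = 3) and 22.7 ± 5.32 (SD, n = 2) gave an 8.98-fold higher level in WT (log2 fold change -3.12, limma adjusted p = 8.4e-12). Its neighbours Gbp3 and Gbp7 were 5.85-fold and 7.09-fold higher in WT, and Gbp3 was at 167, 189.9 and 167 in WT and 34.1 and 25.6 in KO. Mx2 was 10.6-fold higher in WT (35.2 ± 5.69, n = 3, and 3.32 ± 0.0229, n = 2). The related Mx1, defective in most laboratory strains, had 9, 5 and 20 reads in WT and 1 in each KO library, and reached 10 normalized read counts in 1 library only. Whether Mx1 or Mx2 encodes a working protein in these cells was not tested. Iigp1, a founding member of the immunity-related GTPases, had 6, 6 and 14 reads in WT and 0 in KO, and was at least 4.86-fold higher in WT. Igtp and Irgm2, whose promoter stretches share 48 of 50 bases, were 4.10-fold and 6.60-fold higher in WT. Irgm1, a regulator of the other members, had the highest WT level per length of this role and differed least. It was at 436, 371 and 361 in WT and at 320.5 and 334 in KO, a log2 fold change of -0.25 (interval -0.46 to -0.03, limma adjusted p = 0.0400). The Irgm1 call ended without WT replicate 1 (-0.16, limma adjusted p = 0.211), WT replicate 2 (-0.28, 0.0520) or KO replicate 1 (-0.22, 0.113), and the authors' deposited table gives 0.112. Irgm1 carries 2 overlapping matches to the response element core between bases -30 and -15.

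PARP and TRIM genes fell in all 5 tested, mostly by less than 2-fold. Parp12, a mono-ADP-ribosyltransferase gene, was at 1115, 1053 and 1134 normalized read counts in WT and at 623 and 616 in KO (log2 fold change -0.83, limma adjusted p = 3.3e-10). Parp14, of the same enzyme family, fell most, from 141, 109 and 155 in WT to 24.2 and 31.1 in KO (log2 fold change -2.24, limma adjusted p = 6.6e-09). Parp9 and Dtx3l, whose products form a complex and whose genes overlap, were 1.82-fold and 1.56-fold higher in WT, so their reads may be shared. Trim21, an antibody receptor of the cytosol, was 1.76-fold higher in WT, and DESeq2 on the reads of 4 libraries did not call it (adjusted p = 0.0523). The authors' deposited DESeq2 comparison gives an adjusted p of 0.0328 for Trim21. Trim30a, which restrains innate signalling, had 1, 4 and 2 reads in WT and 0 and 2 in KO, and Sp100, a component of nuclear bodies, had 2, 1 and 1 and then 0 in both. At such counts no difference was detectable for Trim30a and Sp100.

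The remaining effectors all fell and include the genes with the largest changes. Lgals3bp, a secreted glycoprotein that binds galectins, was at 2541, 2222 and 2311 normalized read counts in WT and at 115 and 111 in KO. It was 20.9-fold higher in WT (log2 fold change -4.37, standard error 0.0751, limma adjusted p = 1.9e-21). Xaf1, which antagonises an inhibitor of apoptosis, was at 329.7, 281 and 386 in WT and at 20.9 and 12.2 in KO, with a log2 fold change of -4.28 (limma, adjusted p = 7.9e-14). Ifi44, a microtubule-associated interferon response gene, was at 171, 182 and 203 in WT and at 12.1 and 4.45 in KO, with a log2 fold change of -4.46 (limma, adjusted p = 1.1e-11). The KO libraries differed from each other for Ifi44 by more than for Lgals3bp, at levels of few reads. Rtp4, a chaperone of receptors, was 5.81-fold higher in WT. Ifi35, an interferon-induced leucine zipper protein, was 1.83-fold and Lgals9, for galectin-9, 2.11-fold higher in WT. Shisa5, which encodes a membrane protein linked to apoptosis and is the most abundant of this group per length, was at 5009.7, 4848 and 4964 in WT and at 2808 and 3019 in KO (log2 fold change -0.76, limma adjusted p = 1.2e-12).

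**Figure D4:**
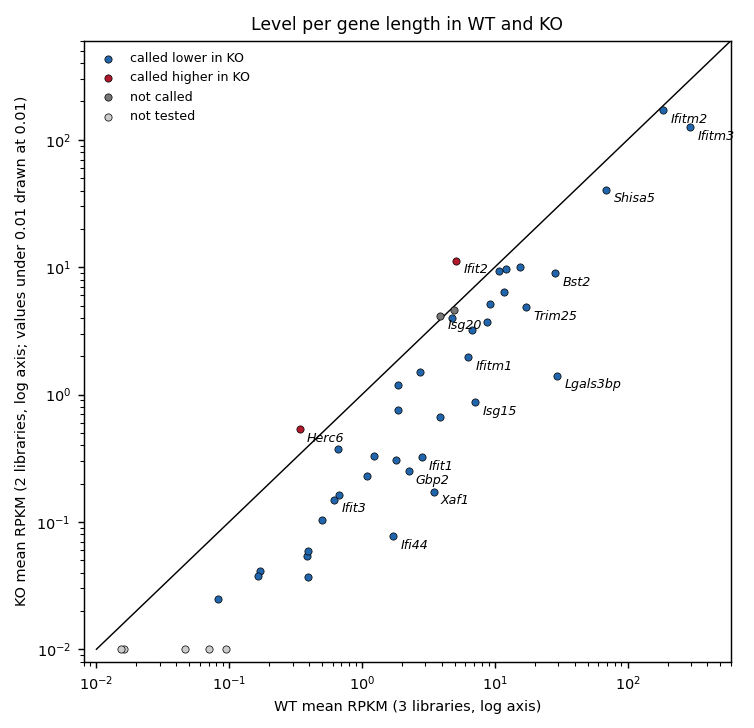
Mean RPKM of each of the 46 effector genes in WT (x axis, 3 libraries) and KO (y axis, 2 libraries), both on log axes, with a line of equal levels and colour by call. Ifit2 and Herc6 are clearly above the line, Isg20 is just above it, and Ifitm3, Ifitm2 and Shisa5 are the most abundant.

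Levels per gene length spanned from 0.0154 to 296 RPKM in WT. In WT, 10 genes were above 10 RPKM and 16 were under 1, while in KO 5 were above 10 and 26 were under 1. In order, the most abundant in WT were Ifitm3 (296 ± 12.2 RPKM, SD, n = 3), Ifitm2 (186 ± 8.53), Shisa5 (69.3 ± 1.25), Lgals3bp (29.4 ± 2.09) and Bst2 (28.4 ± 3.37), of which the last 2 did not differ beyond their spread. In KO the order was Ifitm2 (172 ± 10.8 RPKM, SD, n = 2), Ifitm3 (125 ± 9.95), Shisa5 (40.7 ± 1.71) and Ifit2 (11.2 ± 0.383). Ifit2 was thus among the 4 most abundant effector genes of the KO libraries.

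The location of the genes was compared with the differences around them, because other genes on the same segment also differed between the libraries. The 46 genes lie on 14 chromosomes. For 39 tested genes with at least 3 other tested genes within 500 kb, the median log2 fold change of those neighbours ran from -0.57 to 0.60, with a median of 0.097. The neighbours of Lgals3bp had the lowest median (-0.57, 9 genes) and those of Bst2 the highest (0.60, 24 genes). Ifi35 and Trim21, with neighbour medians of -0.41 and -0.34, were below those medians, with differences of -0.46 and -0.44 on the log2 scale.

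The Ifit genes stand side by side and moved in opposite directions. Ifit3 starts 32.6 kb and Ifit1 90.3 kb from Ifit2, with log2 fold changes of -1.97, -3.11 and 1.14 for Ifit3, Ifit1 and Ifit2. Between Ifit3 and Ifit1 lies I830012O16Rik, which was at -4.00. Its mean was 15.3 normalized read counts in WT and 0 in KO, so it passed the filter through WT alone and the size of its change depends on the added 1. Of the 8 other genes tested within 500 kb, 5 were lower and 3 higher, with a median of -0.37. The shares over all genes tested were 32.6% lower and 32.6% higher. The nearest on the far side of Ifit2 are Lipa, a lysosomal lipase gene, at -0.58, and Ch25h, for cholesterol 25-hydroxylase, itself an interferon-inducible enzyme, at -2.31. Higher were Acta2, for smooth muscle actin, at 1.30, Pank1 at 0.89 and Kif20b at 0.20, of which Pank1 is the nearest, 230.4 kb away. Every tested gene closer to Ifit2 than that was lower. Ifit1 overlaps the annotated gene Ifit1bl1, so where counting ignored strand or split reads, the values of Ifit1 may include its reads.

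The Ifitm genes are neighbours of Sirt3 on chromosome 7. Gaps of 72.5 kb, 85.1 kb and 127 kb separate Sirt3 from Ifitm2, Ifitm1 and Ifitm3. Of the 20 other genes tested within 500 kb of Sirt3, 11 were higher, 5 were lower and 4 were not called, with a median log2 fold change of 0.21. Over all genes tested, 32.6% were lower and 32.6% higher. Psmd13, Athl1 and Ric8, which lie between Sirt3 and the Ifitm genes or overlap Sirt3, were higher by 0.43, 0.74 and 0.50. Ifitm5, a family member known from bone that is not among the 46 genes, lies between Sirt3 and Ifitm2 and was at -0.37, not called (limma, adjusted p = 0.402). Irf7, the interferon regulatory factor gene that drives much of the effector response, lies 381 kb from Sirt3 in the same window and was at -3.24, the lowest value of the 20. Whether the sequence of this segment differs between the lines was not tested.

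**Figure D5:**
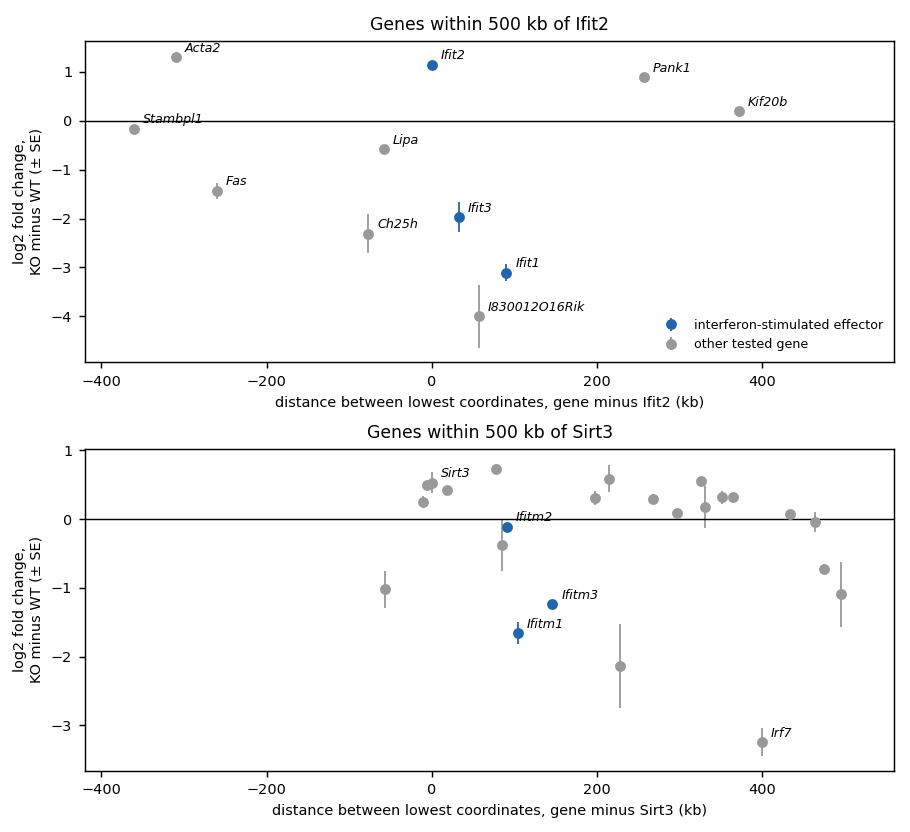
Log2 fold change, KO minus WT (± SE), of every tested gene within 500 kb of Ifit2 (top) and Sirt3 (bottom), by the distance in kb between the lowest coordinates of the genes. Effector genes are blue and other genes grey: Ifit2 at 1.14 stands above Ifit3 and Ifit1, and Ifitm1 and Ifitm3 stand below most genes near Sirt3.

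Genes upstream of the effectors were taken from a list of 33 receptors, kinases, STATs, regulatory factors, inhibitors, sensors and adaptors, of which 30 were tested. In KO, 17 were lower, 4 were higher and 9 were not called, with a median log2 fold change of -0.35. Over all genes tested, 65.3% were called, 32.6% lower and 32.6% higher. The ligand gene Ifnb1 had no reads in 4 libraries and about 1 in WT replicate 2, too few for a test. The receptor gene Ifnar1 was at 4447, 4689.9 and 4636 in WT and at 4816 and 4748 in KO, a log2 fold change of 0.059 that was not called (limma, adjusted p = 0.206). Irf9 and Stat2, which encode parts of the response element factor, were at log2 fold changes of -1.32 and -0.75 (limma, adjusted p = 2.8e-12 and 7.0e-08). Irf7 was at 152, 187 and 191.5 in WT and at 18.7 and 16.7 in KO (log2 fold change -3.24, limma adjusted p = 6.0e-12). The 4 genes that were higher in KO were Irf5 (1.13), Jak2 (0.59), Tmem173, which encodes STING (0.57), and Ifngr2 (0.22), as log2 fold changes, and are named after their values were seen.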

How the data were processed

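The 5 samples' poly-A RNA went through Nextera XT preparation and an Illumina NextSeq run, per the labels' protocols. STAR, DESeq2 and mm10 appear in the submitters' processing notes. What counted the reads, and whether by strand, is not given in the sources used here. Deposited signal values look like the authors' size-factor-scaled read counts, since each column's values are whole multiples of a step to within 0.1 reads. The authors also deposited RPKM values, log2 fold changes with standard errors, a Wald score and p-values, per the file headers.

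Since the values are normalized and not raw counts, limma 3.58.1 (R 4.3.3, trended prior, two-sided) was run on log2(normalized read count + 1) for genes that reached 10 in at least 2 libraries, with genotype as the factor, and adjusted by Benjamini-Hochberg. Such fold changes understate those of low genes. Linear folds are ratios of group means. Samples were grouped by title. Libraries of a genotype differed by more than sampling noise (mean chi-square per gene 3.45 to 7.60). Reads of WT replicate 2 were left out of count tests, which therefore rest on 4 libraries. The step of WT replicate 2 (0.989) was near 1, but its values were whole multiples of that step, as in the other libraries. On counts simulated with little spread beyond sampling noise (12966 genes tested, 200 changed) the test recovered 86.5%, and 14 of 187 calls were false. The real libraries scattered more and 65.3% of all genes tested were called, so these rates do not carry over to them.

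The members and lists were chosen with earlier results of these data known. Full values are given by rule for the 2 called genes with the smallest adjusted p and the gene of highest WT RPKM in each role, for genes called higher and for genes whose groups overlap. Values of other members are given for comparison. Some genes of the upstream and marker lists are counted but not reported here by name. Positions came from the RefSeq table of GRCm38.p6. Promoter sequences are RefSeq's, and in 37 of 38 genes the last bases of a window were found in a GENCODE M21 transcript. Of the 46 genes, 15 overlap another annotated gene. Alternatives were other normalizations, filters, pseudocounts, RPKM, each library left out, a block for the replicate number, 4 libraries' whole reads with DESeq2 1.42.0 and with edgeR 4.0.16, the authors' comparison and stricter thresholds.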

Additional observations from a re-analysis of the deposited data

How the results depend on the processing

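Single genes were compared between alternatives only for the tested effector genes, the tested upstream genes and Sirt3. None of these that was called as reported changed its direction in any alternative that was run. Some genes that were not called, with estimates near 0, did change sign, and of the effector genes this was Isg20 without KO replicate 2 (-0.00695). Of the 39 effector genes called, 32 were called in the same direction in all 16 alternatives that change the data or the fit and gave them an adjusted p, and 7 lost the call in at least 1 of them: Ifitm2, Irgm1, Eif2ak2, Trex1, Trim21, Zbp1 and Ddx60. The count of genes called lower ran from 30 with a mean of 50 or more, which tests fewer genes, to 38 with no filter and in the authors' comparison. The members' median log2 fold change moved from -1.65 to -1.24 with a mean of 50 or more, to -1.28 with a pseudocount of 5, to -1.23 on RPKM, to -1.74 with edgeR and -1.84 with DESeq2 on the whole reads of 4 libraries, and to -1.03 in the authors' comparison. The cause of these moves was not tested. With single libraries left out it ran from -1.69 to -1.53, and each fit without a KO library rests on 1 library, assumed to vary like the WT ones. At least 2-fold, 858 of all genes were higher and 837 lower, 26 effector genes were lower and 1 was higher, and 7 upstream genes were lower and 1 was higher. The replicate number as a block gave 36 effector genes lower, 2 higher and a median of -1.64, with 3958 of all genes higher and 3947 lower, and 17 upstream genes lower and 4 higher. The correlation of deviations was -0.0097 between the libraries numbered 1 and -0.0050 between those numbered 2, so no pairing by number was seen. With 2 KO libraries, their deviations from the KO mean mirror each other. These values therefore cannot decide whether the numbers pair the libraries. Depth limits Rsad2, Mx1, Iigp1, Sp100 and Trim30a, which had at most 20 reads in any library.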
